A study of Mus musculus with 9 samples.

Results

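The genes described here are 9 members of the FOXO and mTOR signalling axis: the transcription factor genes Foxo1, Foxo3 and Foxo4, the kinase gene Mtor, the mTOR partner genes Rptor and Rictor, the mTORC1 inhibitors Tsc1 and Tsc2, and the stress-induced mTORC1 inhibitor Ddit4. They were chosen by gene symbol, each symbol matched 1 row, and all 9 of the 19454 genes listed passed the filter on low counts that left 14461 genes for testing. The libraries came from wild-type mice: 3 from control mice, 3 from mice in which the mPFC and PAG brain regions were inhibited chemogenetically (library names AAV), and 3 from mice with the same inhibition and a spermidine supplement (AAV-SPD). Chemogenetic inhibition silences neurons through an engineered receptor, and spermidine is a polyamine made by cells and by gut bacteria. RNA was polyadenylated RNA from 1500 sorted bone marrow cells per library, labelled as haematopoietic stem cells (HSCs). The series title places the work in the ageing of HSCs under psychological stress with loss of spermidine made by gut microbes.

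The labels give no sex, age, surface markers for the sort, batch, dose or duration of the spermidine supplement, or source animal for a library. They name no virus or receptor ligand for the control mice, so silencing cannot be told apart from effects of the virus or the ligand. No group received spermidine without the inhibition. Since no label says that libraries of a group came from separate animals, p-values measure the spread between these libraries, which may be technical.

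FOXO factors are transcription factors that growth factor signalling keeps out of the nucleus: PI3K activates the kinase AKT, AKT phosphorylates the FOXO protein, and 14-3-3 proteins hold it in the cytoplasm. When signalling is low they enter the nucleus and activate genes for cell cycle arrest, antioxidant defence and autophagy. In mouse HSCs the FOXO family is known for keeping cells quiescent and limiting reactive oxygen species. The kinase mTOR works in 2 complexes. mTORC1, defined by the protein raptor (Rptor), promotes translation and growth and restrains autophagy, and mTORC2, defined by rictor (Rictor), phosphorylates AKT. The tuberin and hamartin proteins (Tsc2 and Tsc1) form a complex that switches off the small GTPase Rheb, the direct activator of mTORC1. Ddit4, also called REDD1, acts upstream of this complex under hypoxia, energy stress and glucocorticoids. Loss of Tsc1 in mouse HSCs is known to end quiescence. Activity of these proteins is set largely by phosphorylation, which RNA levels do not measure.

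Upstream sequences are shown for 4 genes with the values described most closely here. Foxo3 changed in every comparison. Rptor and Tsc1 had their lowest group means in inhibition. Ddit4 had its lowest mean with spermidine, where its difference from inhibition did not pass the test (edgeR adjusted p = 0.148). They are RefSeq promoter windows of GRCm38.p6, 5′ to 3′ on the gene's own strand, trimmed so that they end before the annotated gene bounds. Capitals mark ACGTG, called the hypoxia core here, a form of the short sequence that hypoxia-inducible factors bind. The form GCGTG was neither searched nor marked, though it also occurs in some of the sequences shown.
Foxo3 promoter (chr10:42276756-42276945, minus strand): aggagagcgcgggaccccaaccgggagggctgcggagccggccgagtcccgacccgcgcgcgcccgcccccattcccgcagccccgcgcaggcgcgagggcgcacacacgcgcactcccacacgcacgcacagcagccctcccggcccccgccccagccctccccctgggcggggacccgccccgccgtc
Rptor promoter (chr11:119602655-119602904, plus strand): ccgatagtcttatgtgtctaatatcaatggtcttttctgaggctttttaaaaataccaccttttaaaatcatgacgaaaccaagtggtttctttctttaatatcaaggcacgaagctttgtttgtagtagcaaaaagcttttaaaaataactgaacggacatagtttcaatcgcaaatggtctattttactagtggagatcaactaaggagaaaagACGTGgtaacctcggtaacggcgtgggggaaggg
Tsc1 promoter (chr2:28640983-28641227, plus strand): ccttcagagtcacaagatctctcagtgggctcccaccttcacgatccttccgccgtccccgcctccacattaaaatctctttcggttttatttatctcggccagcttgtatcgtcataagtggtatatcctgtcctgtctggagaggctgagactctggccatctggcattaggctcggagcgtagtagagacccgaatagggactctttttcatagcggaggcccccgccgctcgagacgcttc
Ddit4 promoter (chr10:59951835-59952020, minus strand): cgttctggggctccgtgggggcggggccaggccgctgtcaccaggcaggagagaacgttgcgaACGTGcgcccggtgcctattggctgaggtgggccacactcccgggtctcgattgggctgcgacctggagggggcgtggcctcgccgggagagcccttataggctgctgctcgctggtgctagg
Of the 9 genes, 8 had a promoter in the table, and Foxo4 did not match. The untrimmed windows of 250 bases upstream of the RefSeq start were searched on both strands. The FOXO site TGTTTAC occurred in 0 of the 8 windows and in 3.17% of 32851 promoters of the same length. The short forkhead core TGTTT, which the FOXO site contains, occurred in Foxo1 and Rptor and in 46.4% of all promoters. The hypoxia core ACGTG began 34 bases upstream of the RefSeq start of Rptor and 187 bases upstream of that of Ddit4. It occurred in 16.6% of all promoters. The RefSeq start of Ddit4 lies inside the annotated gene bounds, so the trimmed sequence printed above ends short of that start. The E-box CACGTG, which contains the hypoxia core, the glucocorticoid receptor element (GRE) and the ATF4 composite TGATGNAA had no match in the 8 windows. The windows also differed in base composition: G and C made up 76.4% of the Foxo3 window and 37.6% of the Rptor window, against a median of 52.4% over all promoters. A match describes these letters only, and the start used in these cells was not measured.

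The total estimated count per library was 16096276 to 25360256. Levels are given as CPM (estimated counts brought to the same depth with TMM factors) when a gene is compared between groups, and as TPM (scaled for transcript length) when genes are compared with each other. A gene was called changed when edgeR's quasi-likelihood test gave an adjusted p under 0.05 over all 14461 tested genes. The groups were far apart: 72.4% of tested genes were called in inhibition against control, 58.1% in spermidine against inhibition and 78.1% in spermidine against control. The cell label was checked against 10 HSC marker genes, all of which were tested. In control, Procr (the receptor EPCR) averaged 0.126 CPM, near the limit of 0.118 to 0.186 CPM that a count of 0 allows, and Hlf averaged 2.50, Mecom 2.64 and Ly6a (Sca-1) 6.21 CPM. In the inhibition group the same markers averaged 4.10, 22.3, 11.5 and 83.5 CPM, while Slamf1 (CD150) averaged 104.5 CPM in control and 17.6 in inhibition. Marker genes of other blood cells also moved with the groups. The summed share of counts of 16 neutrophil granule genes was 0.5999 to 0.613% in control, 6.03 to 6.16% in inhibition and 2.604 to 2.71% with spermidine, and all 16 were called higher in inhibition than in control. The 10 megakaryocyte genes summed to 0.292 to 0.296%, 0.0154 to 0.0165% and 0.0183 to 0.0195%, the 12 erythroid genes to 0.342 to 0.353%, 0.137 to 0.138% and 0.144 to 0.150%, and the 13 B and plasma cell genes to 0.00808 to 0.00817%, 0.460 to 0.491% and 0.215 to 0.233%. Within the erythroid list 5 genes rose and 7 fell in inhibition against control: the globin gene Hbb-b1, whose reads near-identical copies can share, rose from 22.2 to 144.8 CPM, and the carbonic anhydrase gene Car1 fell from 1597 to 29.7 CPM. The 9 T and NK cell genes summed to 0.119 to 0.129%, 0.177 to 0.191% and 0.112 to 0.123%. No gene of these 5 lists was at 0 in all 3 libraries of any group. Their part in the values below was not tested. In bulk libraries, fewer cells of a type and less RNA per cell cannot be told apart.

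Per transcript length, Foxo3 was the most abundant of the 9 genes in every group. In control its mean was 16.6 ± 1.08 TPM (SD, n = 3), above 79.7% of tested genes. Tsc2 came next at 7.54 ± 0.697 TPM, then Rictor at 1.93 ± 0.108, Tsc1 at 1.76 ± 0.144 and Mtor at 1.36 ± 0.254 TPM. Rictor and Tsc1 overlapped between libraries. Ddit4 (0.966 ± 0.126 TPM), Rptor (0.962 ± 0.0318) and Foxo4 (0.954 ± 0.330) could not be ordered, and Foxo1 was lowest at 0.389 ± 0.0735 TPM. In inhibition the order of Foxo3, Tsc2 and Rictor was kept, and from Mtor (1.09 ± 0.337 TPM) down to Foxo4 (0.489 ± 0.104) each gene overlapped the next. With spermidine Foxo3 reached 46.8 ± 0.873 TPM, and Foxo4 had the lowest mean, as in inhibition, at 0.477 ± 0.152 TPM. From Rptor (0.793 ± 0.132 TPM) down to Foxo4 each gene again overlapped the next. Apart from Foxo3, the other 8 genes were at or under 8.11 TPM in every library. In control Tsc2 still stood above 69.35% of tested genes. Rictor, Tsc1 and Mtor stood above 46.4, 44.9 and 40.6%, and the rest above 23.2 to 35.1%.

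**Figure D1:**
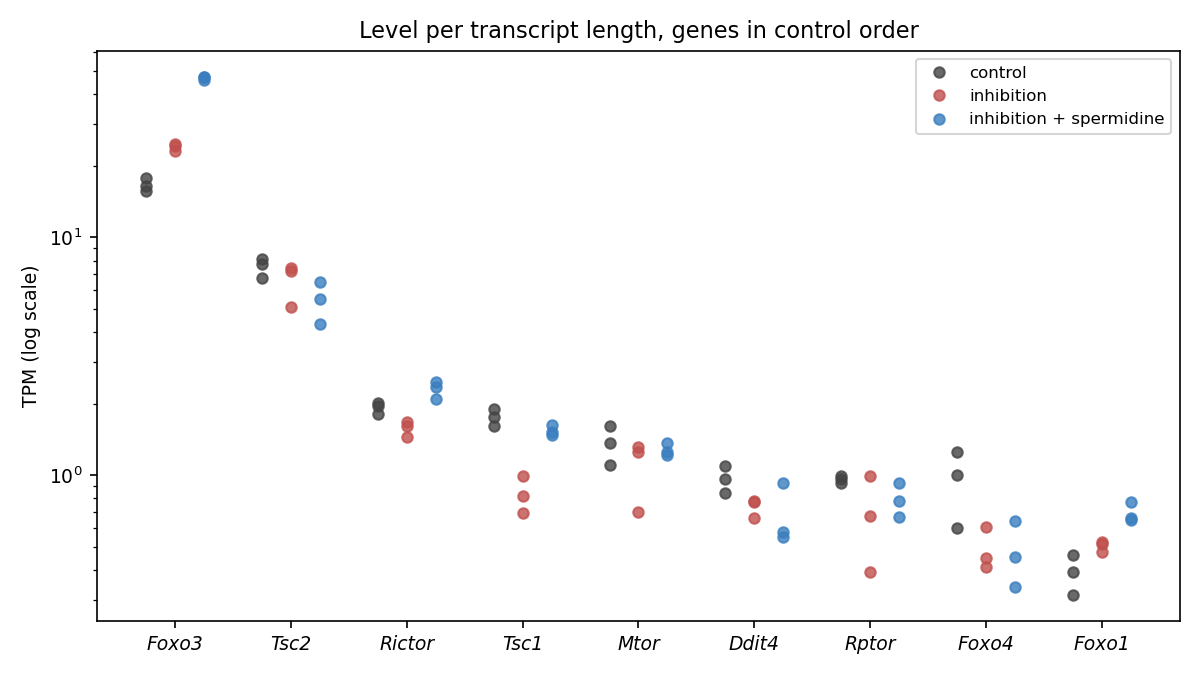
TPM (log scale) of each of the 9 genes in every library, with genes in the order of their control mean and 1 point per library coloured by group. Foxo3 stands above the other genes in all 9 libraries, and the libraries of Ddit4, Rptor and Foxo4 overlap in control.

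In inhibition against control, 6 of the 9 genes fell (Foxo4, Mtor, Rptor, Tsc1, Tsc2 and Ddit4), 2 rose (Foxo1 and Foxo3) and Rictor did not pass the test. That is 88.9% called, against 72.4% of all tested genes. Lower calls made up 36.1% of all tested genes and higher calls 36.2%. For 7 of the 9 genes every library of 1 group lay above every library of the other, as for 74.5% of all tested genes, and the median log2 fold change was -0.43 over the 9 genes and 0.021 over all tested genes. In spermidine against inhibition, 4 rose (Foxo3, Rptor, Rictor and Tsc1), 0 fell and 5 did not pass. This is 44.4% called, against 58.1% of all tested genes, of which 29.1% were higher and 28.9% lower. At an unadjusted p under 0.05 edgeR also gave 0 lower members, and DESeq2 gave 0 lower and 3 higher. Libraries were fully separated for 5 of the 9, against 62.7% of all genes. In spermidine against control all 9 genes were called, 3 higher (Foxo1, Foxo3 and Rictor) and 6 lower, where 78.1% of all genes were called, 41.0% higher and 37.1% lower. Libraries were fully separated for all 9, against 79.8% of all genes. The share of genes called is so large that passing the test does not by itself set these 9 genes apart. The comparisons share libraries: inhibition stands in the first and the second, and control in the first and the third.

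The scaling between libraries matters for every statement on spermidine. With total count scaling in place of TMM, the median log2 fold change of all tested genes shifted by 0.26 in spermidine against inhibition and in spermidine against control, and by 0.0017 in inhibition against control. In spermidine against inhibition, 4213 of 8396 calls were higher with TMM and 7711 of 9504 with total counts. For spermidine against control the split was 5930 of 11293 with TMM and 7705 of 11387 with total counts. Among the 9 genes, total count scaling gave 5 higher and 0 lower calls in spermidine against inhibition, and 3 higher and 5 lower in spermidine against control. Fold changes below are relative to the TMM centre.

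**Figure D2:**
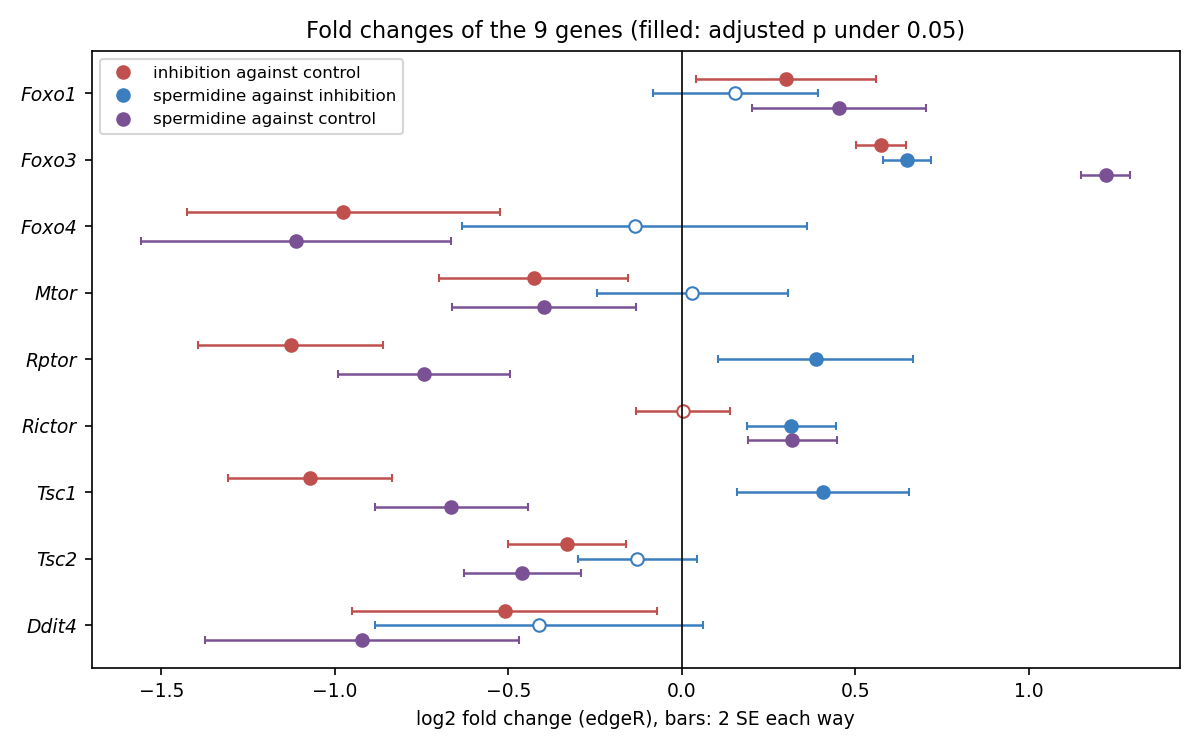
Log2 fold change of each gene in the 3 comparisons from edgeR with TMM scaling, with bars of 2 SE each way; filled points passed an adjusted p of 0.05 and open points did not. Foxo3 lies right of 0 in all 3 comparisons, and Rptor and Tsc1 lie left of 0 against control and right of 0 in spermidine against inhibition.

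Foxo3 (mm10 chromosome 10, 42181841 to 42276755, minus strand) encodes the FOXO factor best known for HSC maintenance. It rose in inhibition and was higher again with spermidine. Its levels were 143.8, 130.1 and 138.7 CPM in control, 201.9, 208.9 and 202.4 CPM in inhibition, and 324.1, 316.1 and 321.1 CPM with spermidine. The 3 groups did not overlap, and libraries of a group lay close together. Inhibition exceeded control by 0.57 on the log2 scale (SE 0.036, 1.49-fold, edgeR adjusted p = 2.285e-10). Spermidine exceeded inhibition by 0.65 (SE 0.034, 1.57-fold, edgeR adjusted p = 1.503e-10) and control by 1.22 (SE 0.035, 2.33-fold, edgeR adjusted p = 7.556e-15). Every alternative run kept the calls, with log2 fold changes of 0.51 to 0.59, 0.60 to 0.96 and 1.16 to 1.49 in the 3 comparisons. Without the other-cell and immunoglobulin genes in the table, the values were 0.57, 0.65 and 1.21. That setting removes those genes from the scaling, not the other RNA of such cells.

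Foxo1 (chromosome 3, 52268336 to 52353221, plus strand), the FOXO factor central to insulin signalling and lymphocyte development, was measured at 6.37, 5.36 and 4.28 CPM in control, 6.70, 6.19 and 6.75 CPM in inhibition and 6.89, 8.02 and 6.75 CPM with spermidine. One control library lay inside the inhibition range, and the lowest spermidine library was level with the highest inhibition library. It rose in inhibition by 0.30 (log2, SE 0.13, edgeR adjusted p = 0.0482), close to the threshold. The call was lost in 11 of 15 alternatives, with edgeR adjusted p = 0.307 without control replicate 3. The value in spermidine against inhibition was 0.15 (SE 0.12, edgeR adjusted p = 0.282), an interval of -0.084 to 0.39 at 2 SE that total count scaling moved to 0.42 (edgeR adjusted p = 0.00510). Spermidine against control was 0.45 (SE 0.13, edgeR adjusted p = 0.00358) and passed in all alternatives run. Estimated counts of Foxo1 were fractional in all 9 libraries, and 7.78% of its exon bases overlap the antisense gene Gm20402. The protocol states no strand step, so reads of such pairs cannot be told apart.

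Foxo4 (chromosome X, 101254528 to 101260873, plus strand), the third family member here, went the other way. It was at 2.61, 2.90 and 2.68 CPM in control, 1.72, 1.04 and 1.50 CPM in inhibition, and 1.33, 1.53 and 0.830 CPM with spermidine. Control lay above all 6 other libraries, whose groups overlapped each other. The fall in inhibition was -0.98 (log2, SE 0.23, edgeR adjusted p = 0.000993), and spermidine against control was -1.11 (SE 0.22, edgeR adjusted p = 0.000263). These values rest on 15 to 54 estimated counts per library, and both calls held in all alternatives run. Spermidine against inhibition was -0.14 (SE 0.25, edgeR adjusted p = 0.660), an interval of -0.63 to 0.36, and turned to 0.12 with total count scaling. 

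Foxo3 made up most of the FOXO family RNA. Its share of the summed TPM of the 3 genes was 92.4, 90.5 and 94.7% in control, 95.6, 96.4 and 96.2% in inhibition, and 97.3, 97.4 and 98.0% with spermidine. The shares of the groups did not overlap. The sum itself was 17.3 to 19.2 TPM in control, 24.1 to 25.6 in inhibition and 47.0 to 48.7 with spermidine. The Foxo1 to Foxo3 TPM ratio was 0.0192 to 0.0260 in control, 0.0192 to 0.0223 in inhibition and 0.0137 to 0.0169 with spermidine. Its log2 value differed by -0.50 between spermidine and inhibition (exact permutation test, two-sided, p = 0.10, the smallest that 3 libraries against 3 allow, 0.18 adjusted over 9 ratio comparisons).

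**Figure D3:**
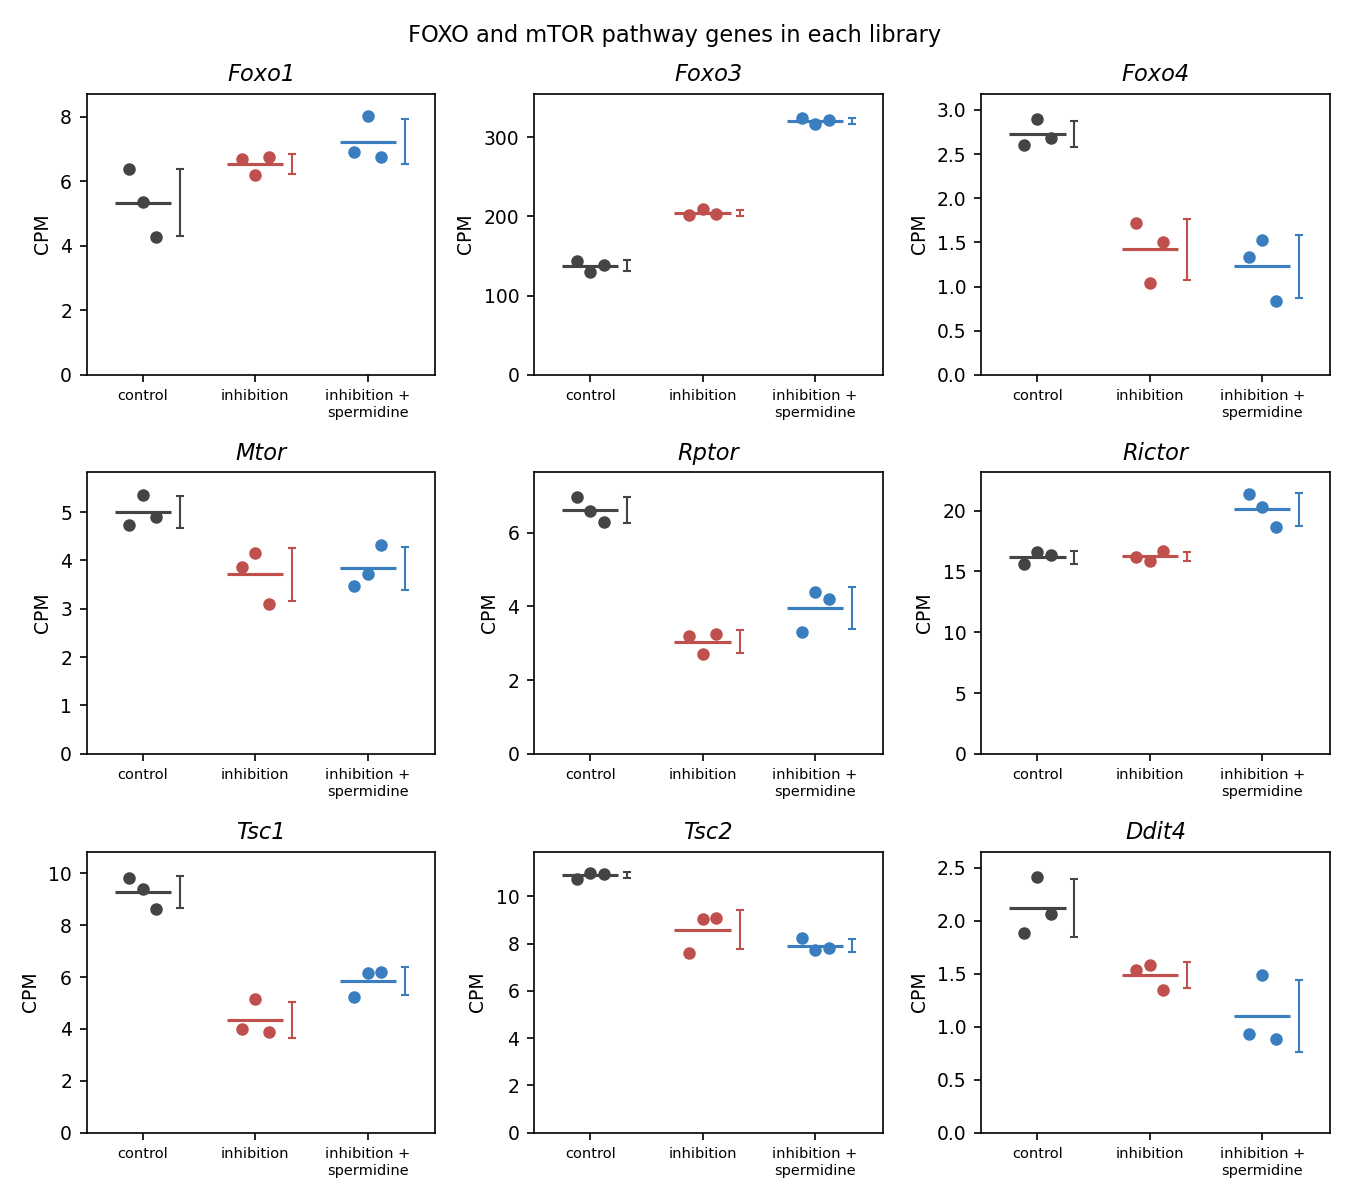
CPM of each of the 9 genes by group on a linear axis from 0, with 1 point per library, the group mean as a horizontal line and the SD as a bar beside it. Foxo3 steps up from control (130.1 to 143.8 CPM) to inhibition to spermidine (316.1 to 324.1 CPM) with no overlap, and Rptor and Tsc1 are highest in control.

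Mtor (chromosome 4, 148448611 to 148557683, plus strand), the kinase subunit of both complexes, was at 4.73, 5.36 and 4.90 CPM in control, 3.87, 4.15 and 3.10 CPM in inhibition, and 3.47, 3.72 and 4.32 CPM with spermidine. Control lay above the other groups, which overlapped. Mtor fell in inhibition (log2 -0.43, SE 0.14, edgeR adjusted p = 0.0101), and spermidine against control was -0.40 (SE 0.13, edgeR adjusted p = 0.0123). The first call was lost in 3 of 15 alternatives. It was lost without inhibition replicate 3 (edgeR adjusted p = 0.0502). Limma gave -0.18 on log2(TPM + 1) (adjusted p = 0.224) and -0.33 on log2(TPM + 0.1) (adjusted p = 0.226). The second call was lost in 4, with -0.13 under total count scaling (edgeR adjusted p = 0.369) and edgeR adjusted p = 0.0556 without spermidine replicate 1. In TPM the control range of 1.10 to 1.61 overlapped those of inhibition (0.699 to 1.31) and spermidine (1.22 to 1.36). Between spermidine and inhibition the difference was 0.030 (SE 0.14, edgeR adjusted p = 0.866), an interval of -0.25 to 0.31, and its sign changed in 3 alternatives.

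Rptor (chromosome 11, 119602905 to 119899576, plus strand) encodes raptor, the mTORC1 scaffold that recruits substrates. It was at 6.98, 6.60 and 6.29 CPM in control, 3.20, 2.70 and 3.25 CPM in inhibition, and 3.31, 4.38 and 4.21 CPM with spermidine. No groups overlapped, though the lowest spermidine library (3.31 CPM) lay close to the highest inhibition library (3.25 CPM). Inhibition against control was -1.13 (log2, SE 0.13, 0.458-fold, edgeR adjusted p = 8.495e-07). Spermidine against inhibition was 0.39 (SE 0.14, edgeR adjusted p = 0.0269), a call lost in 7 of 15 alternatives, among them DESeq2 (adjusted p = 0.115) and the fits without inhibition replicate 2 (edgeR adjusted p = 0.139), spermidine replicate 2 (0.132) or spermidine replicate 3 (0.0733). Spermidine against control was -0.74 (SE 0.12, edgeR adjusted p = 4.178e-05).

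Rictor (chromosome 15, 6708379 to 6800401, plus strand) encodes the mTORC2 subunit. It was at 15.6, 16.6 and 16.4 CPM in control and 16.2, 15.8 and 16.7 CPM in inhibition, and higher with spermidine at 21.4, 20.3 and 18.7 CPM. The first 2 groups overlapped throughout, and spermidine lay above both. Inhibition against control was 0.0027 (log2, SE 0.067, edgeR adjusted p = 0.993), an interval of -0.13 to 0.14. With spermidine it rose against inhibition by 0.32 (SE 0.064, 1.24-fold, edgeR adjusted p = 0.000505) and against control by 0.32 (SE 0.064, edgeR adjusted p = 0.000281). The call against inhibition held in all 15 alternatives. The call against control was lost in 2, at 0.17 with limma on log2(TPM + 1) (adjusted p = 0.0598) and 0.24 on log2(TPM + 0.1) (adjusted p = 0.0697).

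Values in TPM differed from those in counts for several of these genes. The transcript length implied by the ratio of count to TPM ranged over the 9 libraries by 1.06 on the log2 scale for Rptor, 1.05 for Tsc2 and 0.97 for Foxo4, against 0.21 for Foxo3, 0.057 for Ddit4 and 0.028 for Foxo1. For Rictor the range was 0.66, and the implied length differed by group. Relative to its own mean it was -0.41 to -0.16 in control, 0.039 to 0.18 in inhibition and 0.099 to 0.24 with spermidine. In TPM the Rptor inhibition libraries were 0.989, 0.393 and 0.675, which reached the control range of 0.929 to 0.993. With limma on log2(TPM + 1) Rptor in inhibition against control was -0.23 (adjusted p = 0.105), and spermidine against control was -0.13 (adjusted p = 0.322). Rictor in inhibition against control was -0.18 with limma on log2(TPM + 1) (adjusted p = 0.054) and -0.27 on log2(TPM + 0.1) (adjusted p = 0.0495). The TPM ratio of Rptor to Rictor was 0.490 to 0.515 in control, 0.270 to 0.617 in inhibition and 0.285 to 0.378 with spermidine. The inhibition libraries covered the range of the other groups. On the log2 scale inhibition and control differed by -0.30 in TPM (exact permutation p = 0.50) and by -1.13 in counts (exact permutation p = 0.10). Which isoform estimates set these lengths cannot be read from gene-level tables.

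Tsc1 (chromosome 2, 28641228 to 28691167, plus strand) encodes hamartin, which stabilises the inhibitory complex. It was at 9.83, 9.39 and 8.62 CPM in control, 3.995, 5.15 and 3.90 CPM in inhibition, and 5.24, 6.14 and 6.20 CPM with spermidine. Control lay above the rest, and spermidine lay just above inhibition without overlap. Tsc1 fell in inhibition (log2 -1.07, SE 0.12, 0.476-fold, edgeR adjusted p = 3.951e-07), a call held in all 15 alternatives at -1.24 to -0.59. Spermidine against inhibition was 0.41 (SE 0.12, edgeR adjusted p = 0.0102) and was lost without inhibition replicate 1 (edgeR adjusted p = 0.0551) or replicate 3 (0.0570). Spermidine against control was -0.66 (SE 0.11, edgeR adjusted p = 4.092e-05). In TPM the spermidine libraries (1.48, 1.51 and 1.63) overlapped the control range of 1.61 to 1.90, and limma on log2(TPM + 1) gave -0.12 (adjusted p = 0.205).

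Tsc2 (chromosome 17, 24595816 to 24632630, minus strand) encodes tuberin, the GTPase-activating subunit. Its changes were smaller. It was at 10.7, 11.0 and 10.9 CPM in control, 7.62, 9.06 and 9.10 CPM in inhibition, and 8.22, 7.71 and 7.80 CPM with spermidine. Control lay above the other groups, which overlapped. Inhibition against control was -0.33 (log2, SE 0.085, edgeR adjusted p = 0.00218), and spermidine against control was -0.46 (SE 0.084, edgeR adjusted p = 0.000109). The first was not called with limma on log2(TPM + 1) (-0.18, adjusted p = 0.318). Spermidine against inhibition was -0.13 (SE 0.086, edgeR adjusted p = 0.217), an interval of -0.30 to 0.045. It turned to 0.13 with total count scaling, and passed at -0.23 without inhibition replicate 1 (edgeR adjusted p = 0.0365). Tsc2 shares 693 exon bases, 7.20% of its exons, with Pkd1 on the opposite strand. Pkd1 averaged 3.35 CPM in control and changed by -0.84 in inhibition and 1.14 with spermidine against inhibition on the log2 scale. Whether its reads are among those counted for Tsc2 was not tested.

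The TPM ratio of Tsc1 to Tsc2 was 0.216, 0.281 and 0.208 in control, 0.114, 0.195 and 0.0930 in inhibition, and 0.268, 0.232 and 0.374 with spermidine. All inhibition libraries lay below all others. Its log2 value differed by -0.87 between inhibition and control and by 1.17 between spermidine and inhibition. Each difference had an exact permutation p = 0.10 (two-sided, the smallest possible), or 0.18 adjusted over the 9 ratio comparisons. In counts the same differences were -0.76 and 0.56, also at an exact p of 0.10.

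**Figure D4:**
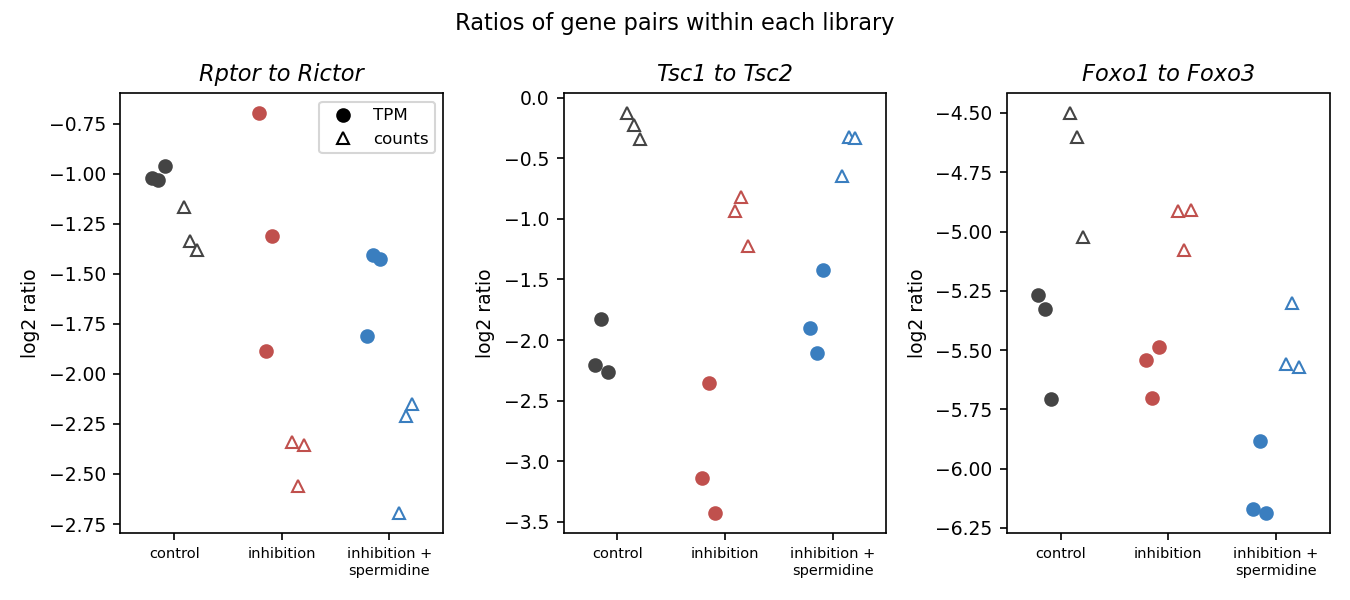
Log2 ratio of Rptor to Rictor, Tsc1 to Tsc2 and Foxo1 to Foxo3 within each library, from TPM (filled circles) and from estimated counts (open triangles). Tsc1 to Tsc2 is lowest in the inhibition libraries in both units, while Rptor to Rictor separates inhibition from control in counts and overlaps in TPM.

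Ddit4 (chromosome 10, 59949669 to 59951834, minus strand) was low throughout, with 16 to 45 counts per library. It was at 1.88, 2.41 and 2.06 CPM in control, 1.54, 1.58 and 1.35 CPM in inhibition, and 0.927, 1.49 and 0.886 CPM with spermidine. Control lay above the rest, and 1 spermidine library lay within the inhibition range. It fell in inhibition (log2 -0.51, SE 0.22, edgeR adjusted p = 0.0471), a call lost in 10 of 15 alternatives, including DESeq2 (adjusted p = 0.145) and all fits that left out 1 library except that without control replicate 1. Spermidine against control was -0.92 (SE 0.23, 0.528-fold, edgeR adjusted p = 0.00144) and was lost in 1 alternative. The difference from inhibition with spermidine was -0.41 (SE 0.24, edgeR adjusted p = 0.148), an interval of -0.88 to 0.062, and passed at -0.71 without spermidine replicate 2 (edgeR adjusted p = 0.0256).

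Other genes of the pathway were taken from lists by role. Of all tested genes, 36.2% were called higher and 36.1% lower in inhibition against control. The shares were 29.1% and 28.9% in spermidine against inhibition, and 41.0% and 37.1% in spermidine against control. No set test was run, so a list count near these shares does not set the list apart. Among 12 mTOR complex subunits, which include Mtor, Rptor and Rictor, 5 fell and 0 rose in inhibition against control. At an unadjusted p under 0.05 edgeR gave 1 higher. At the adjusted threshold DESeq2 gave 0 higher and 5 lower, total count scaling gave 1 higher and 5 lower, and limma on log2(TPM + 1) gave 1 higher and 3 lower. Telo2, a co-chaperone that assembles mTOR and related kinases, fell from 16.6 ± 1.29 to 4.93 ± 0.434 CPM (SD, n = 3; log2 -1.75). Akt1s1, the mTORC1 inhibitor PRAS40, fell from 7.07 ± 0.446 to 3.87 ± 0.296 CPM, and Prr5l, an mTORC2-associated protein, from 4.09 ± 0.491 to 2.36 ± 0.244 CPM. With spermidine against inhibition 3 rose (Rictor, Rptor and Telo2) and 1 fell, Mlst8, a subunit of both complexes, from 3.30 ± 0.376 to 2.13 ± 0.0853 CPM. Against control, spermidine gave 2 higher and 6 lower, or 3 and 4 with total count scaling and 2 and 2 with limma on log2(TPM + 1). The list medians were -0.14, -0.012 and -0.30 in the 3 comparisons, against 0.021, 0.027 and 0.060 over all tested genes.

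Among 5 TSC complex and Rheb genes, Tsc1 and Tsc2 fell in inhibition, 0 rose (0 also at an unadjusted p under 0.05 with edgeR and by DESeq2), and Rheb, Rhebl1 and Tbc1d7 did not pass. Limma on log2(TPM + 1) gave a different split, with 3 higher and 1 lower in inhibition against control, 4 and 0 in spermidine against inhibition, and 3 and 1 in spermidine against control. Rheb itself was at 232.6 ± 1.83 CPM in control and 237.3 ± 8.92 in inhibition. It was lower with spermidine than in inhibition, at 217.3 ± 4.27 CPM (log2 -0.13, edgeR adjusted p = 0.00315), while Tsc1 and Rhebl1 rose. Total count scaling turned this split of 2 higher and 1 lower into 3 and 0. In spermidine against control 1 was higher and 3 lower, or 2 and 2 with total count scaling. The medians were 0.023, -0.12 and -0.098.

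Upstream of AKT and FOXO, 26 of 27 PI3K and AKT genes were tested. In inhibition against control 12 rose and 6 fell (median 0.11). The AKT-related kinase genes Sgk1 (10.5 ± 0.162 to 22.6 ± 1.80 CPM) and Sgk3 (23.8 ± 2.51 to 62.7 ± 2.70 CPM) rose, as did Gsk3b, an AKT substrate (168.3 ± 2.29 to 308.1 ± 6.92 CPM). With spermidine against inhibition 6 rose and 8 fell, or 12 and 2 with total count scaling. Sgk1 fell to 15.2 ± 1.04 CPM and Pik3cb, a PI3K catalytic subunit, from 5.15 ± 0.108 to 2.52 ± 0.216 CPM. Pik3r1, a PI3K regulatory subunit, rose from 22.3 ± 0.673 to 29.5 ± 1.09 CPM. Relative to control, spermidine gave 13 higher and 10 lower, or 15 and 3 with total count scaling. Irs2, an insulin receptor adaptor, was among the higher genes, at 1.20 ± 0.107 CPM in control and 3.997 ± 0.0583 with spermidine.

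A list of 22 genes held Foxo6, a further FOXO family member that was not tested. The other 21, for proteins that modify, hold or move FOXO factors, were tested. In inhibition against control 12 rose and 6 fell, with a median of 0.53. The 14-3-3 genes Ywhaz (687.6 ± 13.4 to 1349 ± 35.2 CPM) and Ywhaq (329.8 ± 2.33 to 496.6 ± 12.9 CPM) rose. Xpo1, the nuclear export receptor, was at 2.49 ± 1.42 CPM in control and 31.5 ± 2.36 in inhibition (log2 3.69, SE 0.20, edgeR adjusted p = 2.505e-11). Sirt1, a deacetylase of FOXO proteins, fell from 50.7 ± 0.617 to 18.7 ± 1.18 CPM. With spermidine against inhibition 2 rose and 12 fell (median -0.12), which total count scaling turned into 13 and 1. Ywhaz fell to 1141 ± 22.3 CPM, Ywhab from 113.8 ± 2.52 to 92.4 ± 1.98, and Stk4, a kinase of FOXO proteins, from 32.8 ± 1.30 to 24.8 ± 1.54 CPM. Crebbp, an acetyltransferase, rose from 169.4 ± 0.781 to 213.8 ± 7.99 CPM. Against control, 12 were higher with spermidine and 6 lower, or 14 and 4 with total count scaling, and Sirt1 was at 17.7 ± 0.571 CPM with spermidine.

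Of 31 listed FOXO target genes, 28 were tested. The list holds Sepp1, an older name of Selenop, beside Selenop. In inhibition against control, where Foxo3 rose, 11 of the targets rose and 13 fell, with a median of -0.034. Over all tested genes 36.2% were called higher and 36.1% lower, with a median of 0.021. Bcl6, a transcriptional repressor, rose from 6.77 ± 0.108 to 36.4 ± 1.01, Trib1 from 4.22 ± 0.399 to 18.2 ± 0.442, and the mitophagy gene Bnip3 from 31.7 ± 1.33 to 65.1 ± 2.98 CPM. In spermidine against inhibition 12 rose and 6 fell (median 0.12), or 20 and 2 with total count scaling. S1pr1, a receptor for cell egress, rose from 10.8 ± 0.725 to 18.7 ± 0.864 CPM, Selenop from 141.4 ± 2.53 to 177.4 ± 3.20, and the antiproliferative gene Btg1 from 525.0 ± 25.3 to 646.5 ± 9.80 CPM. Gadd45a, a growth arrest gene, fell from 41.7 ± 1.79 to 29.0 ± 1.26 CPM and stood at 64.5 ± 2.44 CPM in control. Against control, 14 were higher with spermidine and 14 lower, or 14 and 10 with total count scaling and 17 and 6 with limma on log2(TPM + 1).

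Among 22 of 23 mTORC1 effectors tested, 15 fell and 5 rose in inhibition against control, with a median of -0.43. Pdcd4, an inhibitor of translation that mTORC1 signalling removes, fell from 3419 ± 50.6 to 1728 ± 24.6 CPM (log2 -0.98, SE 0.026, edgeR adjusted p = 2.07e-15). The RNA polymerase III repressor gene Maf1 fell from 64.3 ± 0.950 to 37.5 ± 1.01 CPM, and Eif4g1, the cap-binding scaffold, from 14.1 ± 1.00 to 4.71 ± 0.135 CPM. Eif4e, the cap-binding protein, rose from 265.6 ± 3.42 to 425.4 ± 9.64 CPM. The falling genes thus include both factors that promote translation and factors that restrain it. With spermidine against inhibition 5 rose and 5 fell (median -0.029), or 12 and 2 with total count scaling. Eif4e fell to 330.5 ± 10.4 CPM and Rps6ka1 from 13.2 ± 0.785 to 9.01 ± 0.303 CPM. Rps6ka1 encodes RSK1, a kinase of the ERK pathway, and not the S6 kinase that mTORC1 activates. Maf1 rose to 48.3 ± 0.704 and Ulk1, the kinase that starts autophagy, from 11.2 ± 0.535 to 15.8 ± 1.26 CPM. In spermidine against control 5 were higher and 14 lower (median -0.49), or 7 and 11 with total count scaling and 7 and 6 with limma on log2(TPM + 1). Eif4ebp1, the translation repressor 4E-BP1, was at 291.4 ± 3.58 CPM in control and 206.2 ± 9.19 with spermidine, and Tfe3, a lysosomal gene regulator, at 7.36 ± 0.152 and 3.12 ± 0.183 CPM.

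Amino acid sensing genes, 31 of 32 tested, gave 11 higher and 14 lower in inhibition against control (median -0.036). Fnip1, a folliculin partner, rose from 18.1 ± 0.657 to 37.0 ± 0.698 CPM. The GATOR2 genes Sec13 (98.7 ± 1.70 to 154.9 ± 6.69 CPM) and Seh1l (31.5 ± 1.77 to 59.0 ± 2.11) rose, as did the Ragulator gene Lamtor3 (74.5 ± 1.11 to 109.1 ± 1.66 CPM). Spermidine against inhibition gave 8 higher and 8 lower, or 18 and 3 with total count scaling. Sec13 fell to 111.1 ± 3.47 CPM and Lamtor3 to 87.6 ± 1.22 CPM, while Sesn1, a sestrin that restrains mTORC1, rose from 24.5 ± 0.670 to 35.5 ± 1.41 CPM. With spermidine, 13 were higher than in control and 16 lower, or 15 and 12 with total count scaling. Sesn3 was at 3.96 ± 0.399 CPM in control and 12.9 ± 0.940 with spermidine.

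AMPK and LKB1 genes, which restrain mTORC1 when energy is low, gave 4 higher and 4 lower of 10 of 11 tested in inhibition against control. Stk11, which encodes LKB1, fell from 28.4 ± 1.03 to 13.9 ± 0.751 CPM and the AMPK subunit gene Prkab1 from 28.4 ± 0.463 to 11.4 ± 0.505. The subunit gene Prkag2 rose from 5.50 ± 0.175 to 14.9 ± 1.38 CPM and Cab39, an LKB1 partner, from 27.2 ± 1.01 to 53.5 ± 2.42. Spermidine against inhibition gave 3 higher and 2 lower, or 6 and 0 with total count scaling, and spermidine against control 4 and 5, or 5 and 2. Stress genes induced like Ddit4, 19 of 20 tested, gave 8 higher and 5 lower in inhibition against control. Hif1a, the hypoxia-inducible factor, rose from 9.24 ± 0.756 to 32.1 ± 2.34 CPM, its target Egln3 from 1.18 ± 0.0889 to 7.12 ± 0.723, the amino acid response gene Asns from 21.5 ± 0.357 to 45.2 ± 0.400 and Nupr1 from 35.6 ± 0.965 to 96.7 ± 4.96 CPM. Among the 5 that fell, named after their values were seen, were the glucocorticoid-induced gene Zbtb16 (2.00 to 0.299 CPM), the clock gene Per1 (17.3 to 7.31), Atf3 (55.7 to 33.4) and Ddit3 (89.9 to 57.0 CPM). In spermidine against inhibition 9 rose and 8 fell, or 13 and 4 with total count scaling. Atf3 (33.4 ± 1.62 to 58.6 ± 2.26 CPM) and Ddit3 (57.0 ± 2.07 to 90.1 ± 3.71 CPM), both stress-induced transcription factors, rose, and Asns fell to 26.1 ± 1.18 CPM. In spermidine against control 11 were higher and 5 lower, or 15 and 3 with total count scaling, with Klf9, a glucocorticoid-induced gene, at 20.6 ± 1.52 CPM in control and 40.1 ± 0.433 with spermidine.

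**Figure D5:**
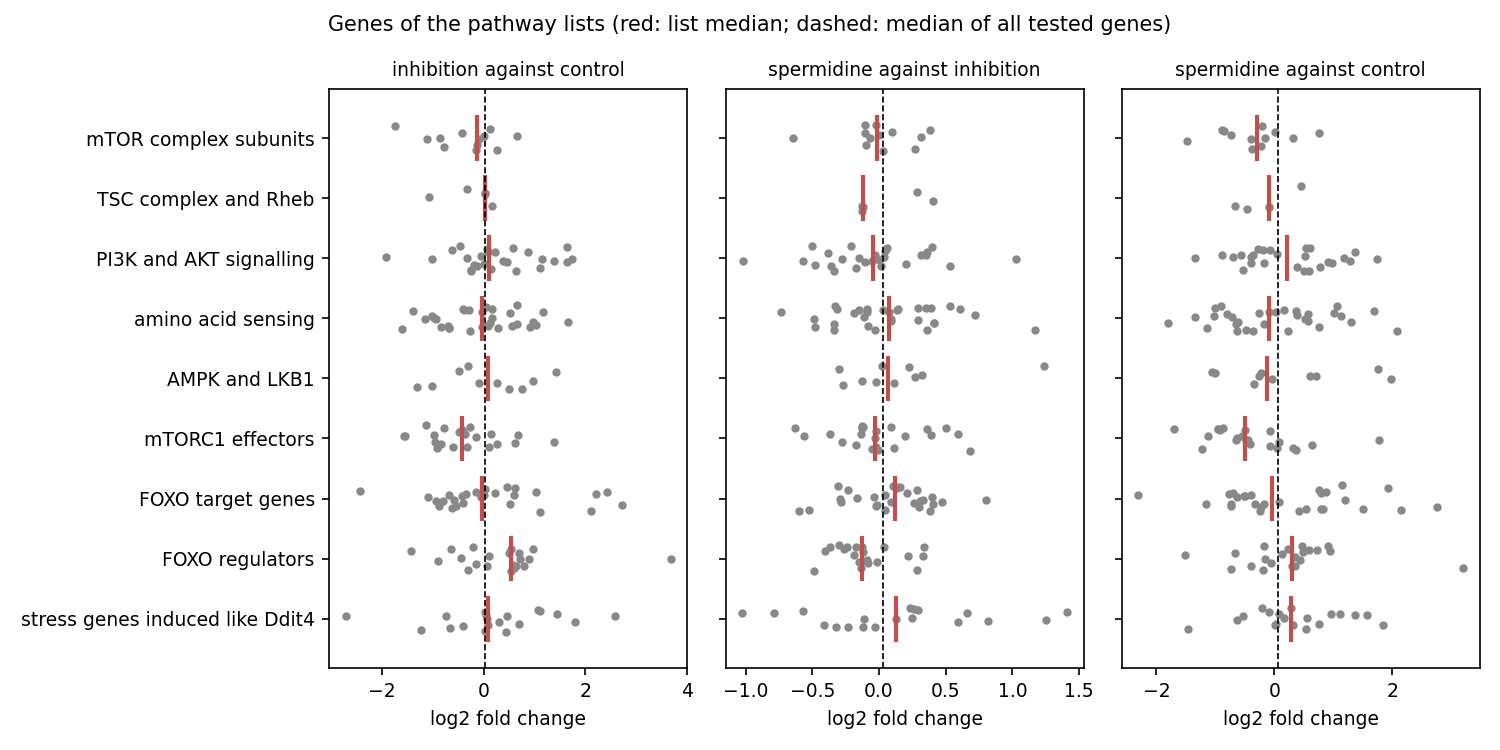
Log2 fold changes of the tested genes of 9 pathway lists in the 3 comparisons (edgeR, TMM scaling), with 1 grey point per gene, the list median as a red bar and the median of all tested genes as a dashed line. The mTORC1 effectors have a median of -0.43 in inhibition against control, FOXO regulators one of 0.53, and the points of each list lie on both sides of the dashed line.

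The genes with the levels most like a member's were sought for the 3 members with the widest span of group means. Likeness was the distance between log2 CPM values over the 9 libraries, each gene centred on its own mean. The points share libraries, scaling and groups, so a correlation is only a description. Closest to Foxo3 were Cux1 (98.8, 152.9 and 233.3 CPM in control, inhibition and spermidine, distance 0.15, Pearson r = 0.995 over 9 libraries), Sik1 (41.1, 56.7 and 93.0 CPM, distance 0.19) and Slfn3 (5.47, 7.90 and 12.8 CPM, distance 0.21). Closest to Rptor were Cabin1 (14.2, 6.86 and 8.79 CPM, distance 0.29), Gtf3c5 (6.89, 2.99 and 4.13 CPM, distance 0.29) and Hemgn (28.9, 12.7 and 16.6 CPM, distance 0.30). Closest to Foxo4 were Myl6b (2.47, 1.19 and 1.13 CPM, distance 0.38), Zfp202 (4.04, 2.17 and 1.52 CPM, distance 0.57) and Ei24 (9.68, 5.31 and 4.93 CPM, distance 0.57).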

How the data were processed

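Low-input RNA sequencing was done on 9 libraries of sorted mouse bone marrow cells. Per the submitters' processing notes, the tools were STAR 2.6.1d, HTSeq 0.10.0, Trim Galore 0.6.2 and edgeR 3.24.3, and the build was mm10. The authors deposited estimated counts per gene, not scaled between libraries. Of these values 48.2% are whole to within 1e-06, and the step that gave fractions is not given in the sources used here. The authors also deposited TPM, which corrects each library for depth and for transcript length. Coordinates are from GENCODE M21 on mm10 (1-based gene bounds), and 19437 listed genes matched it.

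Estimated counts were rounded and tested in R 4.3.3 with edgeR 4.0.16 (quasi-likelihood, 1 fit of all 9 libraries, TMM, the default filter on low counts) and Benjamini-Hochberg adjustment over 14461 genes. The SE is the log2 fold change divided by the square root of F. Where edgeR's Poisson bound gives a larger p it is used in place of that from F, as for Rictor in inhibition against control. The 9 genes and the pathway lists were chosen with earlier results of these data known. Beside the 9 genes, the text names up to 4 tested genes per list and comparison, those with the smallest p, and the 3 genes nearest to each of 3 members. Some listed genes that this rule picks are not reported here. Alternatives were DESeq2 1.42.0, other scalings, no filter, a replicate block, limma 3.58.1 on log2(TPM + 1) and log2(TPM + 0.1), and leaving out each library. On simulated counts of 14461 genes for inhibition against control, 100 genes were changed by 0.5 and 100 by 1 on the log2 scale. They were drawn from genes above a limit on the mean count. The test recovered 65% and 85% of them. Far fewer genes changed there than were called in the data, so these rates do not carry over to the data. Libraries of a group differed by more than sampling noise (chi-square per degree of freedom 2.45 to 7.70). Floors cover counting error only, since PCR copies are not independent molecules.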

Additional observations from a re-analysis of the deposited data

How the results depend on the processing

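Of the log2 fold changes of the 9 genes under the alternatives, 341 kept their direction and their side of the threshold, 48 lost the call, 4 gained one and 12 changed sign. All 12 sign changes were in values that had not passed in the main fit. Of these, Rictor in inhibition against control passed as lower with limma on log2(TPM + 0.1) (adjusted p = 0.0495). Rictor in inhibition against control was -0.0016 without other-cell and immunoglobulin genes, -0.0030 with no filter, -0.18 and -0.27 with limma on log2(TPM + 1) and log2(TPM + 0.1), -0.035 without control replicate 1 and -0.027 without inhibition replicate 3. In spermidine against inhibition, total count scaling gave 0.12 for Foxo4 and 0.13 for Tsc2. Mtor was -0.018 with no filter, -0.093 without inhibition replicate 3 and -0.054 without spermidine replicate 3, which gave 0.040 for Foxo4. Leaving out 1 library gave -0.035 to 0.012 for Rictor in inhibition against control, and -0.093 to 0.13 for Mtor and -0.35 to 0.040 for Foxo4 in spermidine against inhibition. The number of the 9 genes called in inhibition against control was 3 and 4 with limma on log2(TPM + 1) and log2(TPM + 0.1), in place of 8, and 5 and 4 in spermidine against control, in place of 9. Leaving out 1 library gave 5 to 8 in inhibition against control (5 without inhibition replicate 3), 3 to 4 in spermidine against inhibition and 8 to 9 in spermidine against control. The cause was not tested. Of all tested genes, 7112 and 7079 were higher in spermidine against inhibition with limma on log2(TPM + 1) and log2(TPM + 0.1), and 7711 with total count scaling, in place of 4213. Replicate numbers did not pair libraries (residual correlation of same-numbered libraries -0.037 to 0.053). The replicate block called 7, 4 and 9 of the 9 genes in the 3 comparisons, with an edgeR adjusted p of 0.0514 for Foxo1 in inhibition against control. Foxo4 and Ddit4 rest on 15 to 54 and 16 to 45 counts per library, and the effect of depth on their calls was not tested.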
